A study of Mus musculus with 15 samples.

Results

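The same nominal circadian phase was sampled on consecutive days in the liver of mice kept in constant darkness, at CT0 and again at CT24. The ribosome footprints of the 2 days were compared. The comparison holds 4 of the 14 libraries, 2 mice at CT0 and 2 mice at CT24, chosen by the time in the sample title. All 14 libraries came from the liver of wild-type C57BL/6N males that had been entrained to 12 h of light and 12 h of darkness and then released into darkness, with 2 mice killed every 4 h. The CT0 mice were taken at the start of the sampled day and the CT24 mice at its end, and each library came from a different animal. In the time field of the labels the CT24 libraries are written as CT00, so that they are placed at CT24 by their titles alone. The question is which transcripts stood at the same level after one day and which did not.

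The circadian clock of a hepatocyte is a transcriptional feedback loop. Arntl (BMAL1) with Clock or Npas2 activates genes that carry an E-box, among them Per1, Per2, Per3, Cry1, Cry2, Nr1d1 and Dbp. The PER and CRY proteins repress that activation, while the nuclear receptors of the Nr1d and Ror families set the rhythm of Arntl through their own response element. Dbp, Tef and Hlf act on D-box elements, to which Nfil3 binds as a repressor. In darkness this loop runs without a light signal. CT0 and CT24 are nominally the same clock phase and were taken 24 h apart. Ribosome profiling sequences the stretch of mRNA that a ribosome protects, so a footprint count reflects both the amount of an mRNA and the number of ribosomes on it, which the footprints alone do not separate.

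The elements through which these genes are regulated were looked up in promoters of 250 bases before and 50 bases after each RefSeq start (GRCm38.p6), which were at hand for 18 of the 23 clock genes examined here. The E-box (CACGTG) was found in the windows of 5 of the 18 genes, against 8.09% of 27025 genes with a promoter in the same table. The D-box letters TTATGTAA stood in 1 of the 18, against 1.11% of all genes, and the core letters AGGTCA of nuclear receptor elements, on either strand, in 5, against 18.1%. The windows below are shown because their genes span the opposite phases of the loop whose return is measured. The motif is in capitals and each stretch reads 5′ to 3′ on the strand of the gene.
Cry1 E-box: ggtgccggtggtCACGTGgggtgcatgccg
Per1 E-box: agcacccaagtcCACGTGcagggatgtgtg
Bhlhe41 E-box: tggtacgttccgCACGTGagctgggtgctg
Per3 D-box: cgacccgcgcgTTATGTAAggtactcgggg
Arntl receptor element: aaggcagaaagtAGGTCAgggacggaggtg
Nr1d2 receptor element: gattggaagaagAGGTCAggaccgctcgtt
They lie at chr10:85185097-85185126 (Cry1, minus strand), chr11:69098771-69098800 (Per1, plus), chr6:145865556-145865585 (Bhlhe41, minus), chr4:151044852-151044881 (Per3, minus), chr7:113207530-113207559 (Arntl, plus) and chr14:18239166-18239195 (Nr1d2, minus). Windows follow the start that the promoter table gives, which for Per1, Per3 and Arntl lies inside the outermost span of the gene. A match of letters is a description of the window, and its use by a factor was not tested.

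The total counts were 40593197 and 49597897 in the CT0 libraries and 42898434 and 54265729 in the CT24 libraries, within the range of 40593197 to 90458783 over all 14. Major urinary protein (Mup) transcripts took 34.2% and 40.4% of the counts at CT0 and 42.6% and 45.3% at CT24, and levels are therefore given as CPM, that is, counts relative to a library size scaled by the trimmed mean of M values (TMM). The libraries of CT12 replicate 1 and CT20 replicate 1 stood apart in multidimensional scaling. Every count of CT16 replicate 2 was even, against 48.9% to 50.4% even counts in the other 13 libraries. These libraries bear on the comparison of CT24 with CT0 through the estimate of spread, the count filter and the scaling. Defining hepatocyte markers were abundant in all 4 libraries: the 13 hepatocyte genes summed to 49720 and 50369 CPM at CT0 and to 56080 and 61961 CPM at CT24. The labels do not say that mice of the same number were related, and with 2 animals a day the p-values measure the spread between single animals.

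No transcript passed the test between CT24 and CT0. Of 17299 transcripts that averaged 10 or more counts, belonging to 11747 genes, 0 had an adjusted p under 0.05 in edgeR's quasi-likelihood test (a background of 0%). At an unadjusted p under 0.05 there were 873 (5.05%), 470 higher (2.72%) and 403 lower (2.33%) at CT24. DESeq2 called 2, Cyp26a1 and Rplp1, both lower at CT24, and without CT0 replicate 1 edgeR called 2, also lower. The levels of both CT24 mice lay above both CT0 mice for 3357 transcripts (19.4%) and below them for 3156 (18.2%). The median absolute difference was 0.23 log2 units.

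A missing call does not show a return to the earlier level, so the 95% interval of each difference was set against a limit of 2-fold. It lay within that limit for 10112 transcripts (58.5%), and within 1.5-fold for 3692 (21.3%). This share was higher for more abundant transcripts. It was 4.02% of the 5270 transcripts with a mean of 10 to under 100 counts, 77.6% of the 9051 with 100 to under 1000, and 96.5% of the 2978 with at least 1000. The median standard error fell from 0.70 through 0.26 to 0.18 log2 units over the same classes. For most of the least abundant class a return to within 2-fold was thus not detectable at this depth. Abundant transcripts were measured closely. Atp5b, the beta subunit of the mitochondrial ATP synthase, had 481 and 512 CPM at CT0 and 481 and 513 CPM at CT24, a log2 difference of 0.00 with an interval of -0.31 to 0.31. The apolipoprotein gene Apof had 383 and 377 CPM at CT0 and 368 and 345 CPM at CT24, with an interval of -0.39 to 0.20, and was among the narrowest of all. The initiation scaffold Eif4g1, whose counts are shared with an unnamed transcript, had 111 and 113 CPM at CT0 and 117 and 111 CPM at CT24. The carboxylesterase Ces3a was measured as closely and lay higher in both CT24 mice, at 685 and 622 CPM against 519 and 540 CPM, a difference of 0.30 that did not pass after adjustment (edgeR adjusted p = 0.957).

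**Figure D1:**
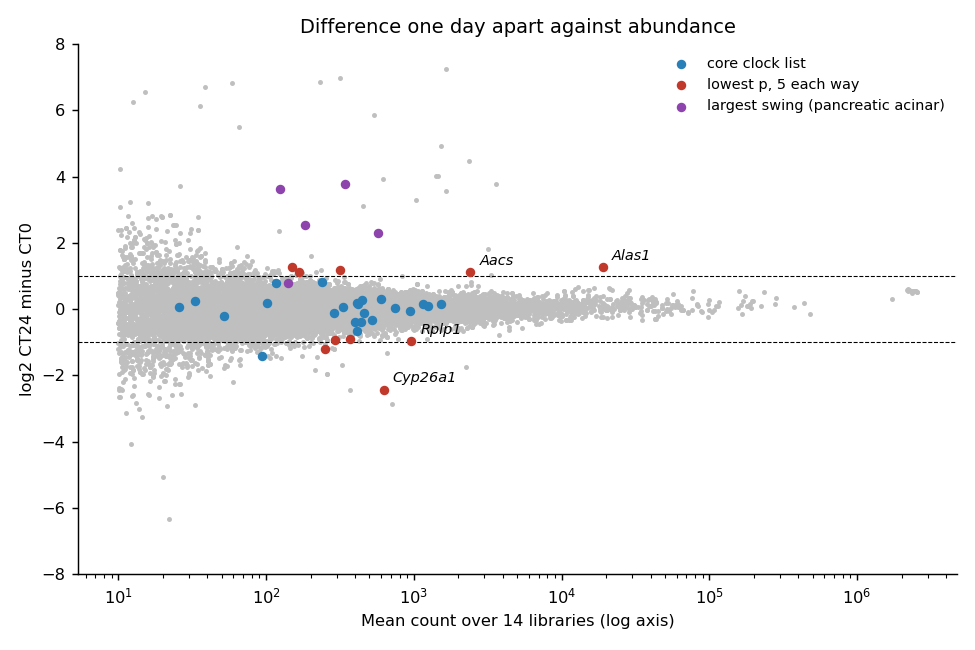
The log2 difference between CT24 and CT0 is plotted against the mean count over 14 libraries on a log axis, 1 point for each of 17299 transcripts, with dashed lines at 2-fold. Most clock genes (blue) lie near the zero line, with Bhlhe41 lowest at -1.43 and Per1 highest at 0.82, while the 10 transcripts of lowest p (red) lie at the edges of the cloud, and 5 pancreatic acinar transcripts (purple) rest on reads of 1 CT24 library.

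The same model gave calls for most other pairs of time points. CT12 differed from CT0 in 1160 transcripts (6.71%) and CT24 from CT12 in 621, while CT4 differed from CT0 in 63 and CT24 from CT4 in 23. Of the 21 pairs, 3 had 0 calls: CT0 with CT24, CT20 with CT24 and CT0 with CT20. Calling nothing was therefore not peculiar to the pair one day apart, and the neighbouring phase CT20 was not separated from either end. The unadjusted counts of these 3 pairs were 873, 859 and 1561, and all pairs share libraries. The CT0 and CT24 libraries were also about as alike across days as within a day. Pearson's r of log2 CPM over transcripts was 0.96 between the CT0 mice and 0.96 between the CT24 mice. It was 0.94 to 0.98 between mice of different days, and transcripts are not independent replicates. The mean r of CT0 with CT24 was 0.961, beside 0.965 for CT0 with CT4 and 0.961 for CT0 with CT16. Between CT0 and CT12 it was 0.933. A high r was thus not peculiar to the pair one day apart.

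**Figure D2:**
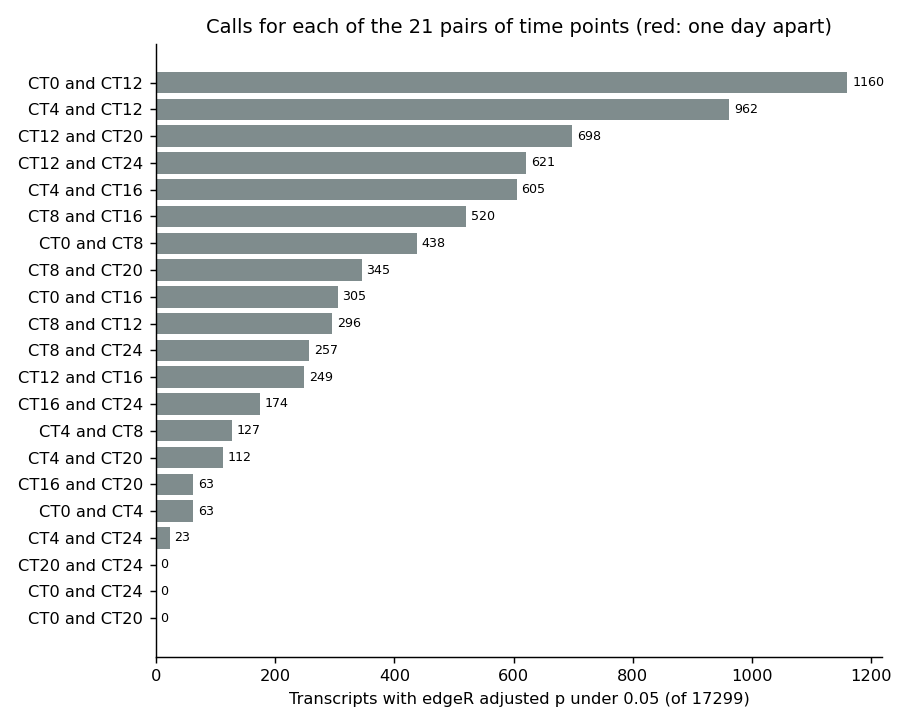
Bars give the number of transcripts with an edgeR adjusted p under 0.05 for each of the 21 pairs of time points, of 17299 tested. The pair one day apart (red) has 0, as have CT20 with CT24 and CT0 with CT20, and CT0 with CT12 has the highest count, 1160.

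Transcripts with a daily rhythm were then picked without the CT0 and CT24 libraries, by a cosine of 24 h fitted to the 10 libraries of CT4 to CT20. There were 1230 (7.11%). Of these, 0 differed between CT24 and CT0 after adjustment (0%), and 109 (8.86%) had an unadjusted p under 0.05, beside 5.05% of all transcripts. The interval lay within 2-fold for 955 of them (77.6%), beside 58.5% of all transcripts. All 955 were among the 1166 with a mean of at least 100 counts, and made up 81.9% of these. Of all transcripts, 77.6% of those with 100 to under 1000 counts and 96.5% of those with at least 1000 lay within 2-fold. The part of depth was not tested. The 1230 had a median absolute difference one day apart of 0.20 log2 units. Their median range between the highest and lowest time point of CT4 to CT20 was 1.25 log2 units. The difference was under 0.5 of that range for 1138 (92.5%), beside 64.0% of all 17299 transcripts, of which most had no called rhythm. The libraries that gave the range also picked these transcripts, so that a wide range was part of the choice. For transcripts not called rhythmic the median absolute difference was 0.23 and the median range 0.60 log2 units. These shares therefore do not compare how closely levels returned. Of the 1230, 540 differed between CT12 and CT0 in the same fit, beside 6.71% of all transcripts. The CT12 libraries were among those that picked the 1230, so that part of this excess came with the choice. Among the 352 of the 1230 that peaked from CT21 to CT3, and so near the phase sampled on both days, 18 (5.11%) had an unadjusted p under 0.05. For peaks from CT3 to CT9 it was 9 of 132 (6.82%), and from CT9 to CT15 46 of 402 (11.4%). From CT15 to CT21 it was 36 of 344 (10.5%), beside 5.05% of all transcripts. Whether these shares differ was not tested. A linear drift over the day beside the cosine was called for 0 of 17299 transcripts in all 14 libraries (956, 5.53%, at an unadjusted p under 0.05).

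No clock gene passed the test between the days, and for most the difference was small beside the daily range. All 23 genes of the list passed the count filter, 0 of 23 differed between CT24 and CT0, and 15 of 23 differed between CT12 and CT0 in the same fit (6.64% of 11747 genes at 1 transcript per gene). Their median absolute difference one day apart was 0.18 log2 units, and their median range over CT4 to CT20 was 2.74. For 21 of the 23 the difference was under 0.5 of the range, a share close to the 92.5% of rhythmic transcripts, and for Cry2 and Rora it was 0.53 and 0.70 of the range. Both CT24 mice lay above both CT0 mice for 3 genes and below them for 4, and the groups overlapped for 16; over all genes 37.6% did not overlap. The interval was within 2-fold for 13 of the 23, where the background over genes was 58.9%. Of the 16 with 100 to under 1000 counts it was so for 10, beside 77.6% of all transcripts of that class.

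Among the activators, Arntl (chr7:113178471-113314126) had 8.08 and 8.89 CPM at CT0 and 8.83 and 6.69 CPM at CT24, against 0.568 and 0.296 CPM at CT12. The groups overlapped, and the difference of -0.13 log2 units (interval -0.82 to 0.56) stood beside a range of 4.21. Clock, its partner, had 8.26 and 6.79 CPM at CT0 and 9.54 and 7.51 CPM at CT24, with an interval of -0.27 to 0.63. Npas2, the other partner, had 1.69 and 1.90 CPM at CT0 and 1.73 and 1.39 CPM at CT24, and 0 reads in both CT12 libraries. These genes were near their daily peak on both days.

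The repressors of the Per family stood below their daily peak and above their CT4 level on both days. Per2 had 5.57 and 3.68 CPM at CT0 and 5.50 and 4.70 CPM at CT24, a difference of 0.14 (interval -0.53 to 0.81) beside a range of 3.70, after 2.00 and 0.683 CPM at CT4 and 15.4 and 15.9 CPM at CT16. Per3 had 0.320 and 0.498 CPM at CT0 and 0.489 and 0.440 CPM at CT24. Per1 was the least settled of the family, at 1.01 and 1.43 CPM at CT0 and 1.39 and 2.90 CPM at CT24, where CT24 replicate 2 stood above the other 3 mice. Its difference was 0.82, with an interval of -0.08 to 1.72.

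Both cryptochromes stood lower in both CT24 mice. Cry2 (chr2:92403646-92434085) had 7.27 and 6.58 CPM at CT0 and 4.28 and 4.42 CPM at CT24. The groups did not overlap, and the 2 mice of each day lay close together. Cry2 was the only clock gene with an unadjusted p under 0.05, which is 4.35% of the list beside 5.11% of all genes. The difference was -0.67 log2 units (interval -1.15 to -0.19; edgeR adjusted p = 0.957), over a range of 1.26. Under 15 alternative settings its difference ran from -0.99 to -0.53 and passed in none. Cry1 had 9.78 and 12.4 CPM at CT0 and 8.81 and 8.01 CPM at CT24, a difference of -0.40 (interval -0.92 to 0.12).

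The nuclear receptors of the loop mostly overlapped between the days. Nr1d1 (REV-ERBα, chr11:98767932-98775377) had 1.89 and 1.98 CPM at CT0 and 2.59 and 1.69 CPM at CT24, after 69.8 and 49.5 CPM at CT8. Its difference of 0.14 (interval -0.67 to 0.95) was small beside a range of 5.20. Nr1d2 had 0.928 and 1.53 CPM at CT0 and 1.35 and 0.546 CPM at CT24. Rora, with a range of only 0.46, lay lower in both CT24 mice, at 9.74 and 7.92 CPM against 11 and 11 CPM.

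Of the D-box factors, Dbp (chr7:45705100-45710203) had the widest range. It stood at 0.658 and 0.901 CPM at CT0 and at 0.754 and 0.757 CPM at CT24, after 36.2 and 52.5 CPM at CT12. The difference was -0.05 (interval -1.01 to 0.92) beside a range of 6.21. Tef lay slightly higher in both CT24 mice, at 4.46 and 4.73 CPM against 3.17 and 4.29 CPM, as did Hlf, at 7.70 and 6.44 CPM against 6.27 and 5.31 CPM. The repressor Nfil3 had 10.5 and 12.1 CPM at CT0 and 11 and 9.71 CPM at CT24.

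The E-box repressors Bhlhe40 (DEC1) and Bhlhe41 (DEC2) did not pass the test. Bhlhe40 had 14.5 and 13.5 CPM at CT0 and 15.9 and 15.5 CPM at CT24, a difference of 0.16 (interval -0.32 to 0.65). Bhlhe41 had 0.439 and 0.531 CPM at CT0 and 0.163 and 0.194 CPM at CT24, the largest difference of the list at -1.43, with an interval of -2.94 to 0.09 at a mean of 94 counts. With CDS reads only its difference was 0.72, so that its direction was not settled. Bhlhe40 lay higher in both CT24 mice. With total scaling its difference was -0.15, beside a median of -0.30 for all transcripts, so that its sign changed with the shift of all transcripts. Ciart, a repressor of the loop, was near 0 on both days, at 0.202 and 0 CPM and at 0.245 and 0.106 CPM, after 8.37 and 6.10 CPM at CT12. The kinases Csnk1d and Csnk1e, which act on PER, and the ubiquitin ligase subunit Fbxl21, which acts on CRY, overlapped between the days.

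**Figure D3:**
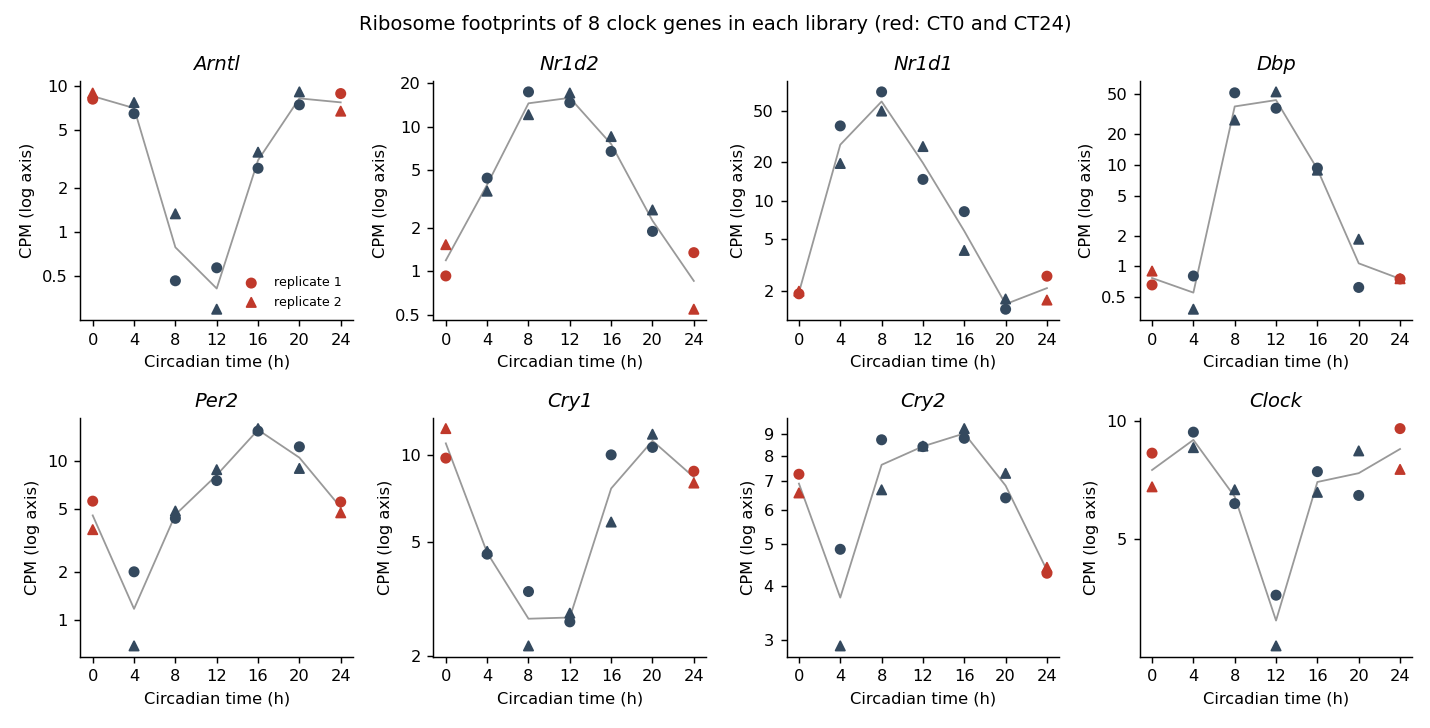
CPM on a log axis of 8 clock genes against circadian time, 1 point for each library (circles replicate 1, triangles replicate 2), with a line through the geometric means. The red points at CT0 and CT24 overlap for Arntl, Nr1d2, Nr1d1, Dbp, Per2 and Clock, while both CT24 points of Cry1 and Cry2 lie below both CT0 points.

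**Figure D4:**
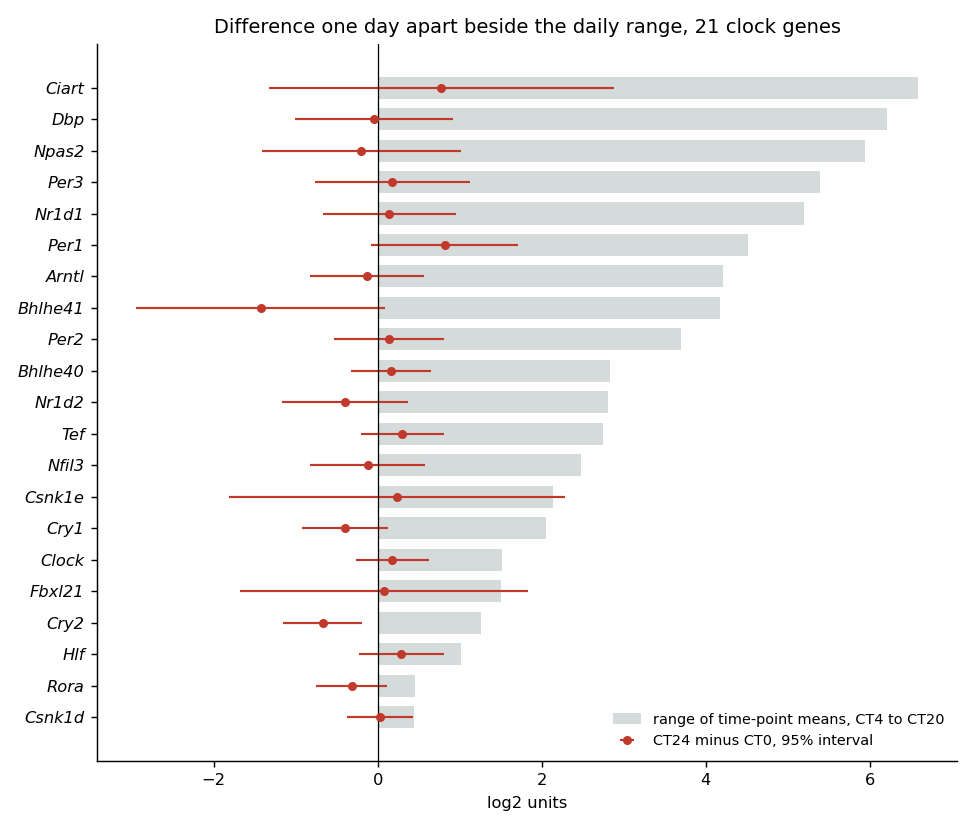
For 21 of the 23 clock genes the red point and bar give the log2 difference between CT24 and CT0 with its 95% interval, and the grey bar gives the log2 range of time-point means over CT4 to CT20. The intervals are short beside the range for Dbp, Nr1d1, Arntl and Per2, and the interval of Cry2 alone does not reach 0.

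The clock genes were also used together to place each library on the daily cycle, by fitting their cosines to the libraries of CT4 to CT20. The CT0 libraries were placed at 21.6 h and 22.2 h and the CT24 libraries at 21.4 h and 21 h. With these genes both days were placed before the labelled time, and the CT24 libraries 0.739 h earlier than the CT0 libraries on average. The 2 mice of a day were 0.615 h apart at CT0 and 0.434 h apart at CT24, and libraries of CT4 to CT20 that were left out of the fit missed their labelled time by 0.134 h to 1.21 h. The difference between the days was smaller than the largest of these errors. The fit held no library after CT20 or before CT4, so both days were placed outside its span. With the 851 rhythmic genes in place of the clock genes the CT24 libraries were placed 0.136 h earlier than the CT0 libraries on average, and 3 of the 4 libraries after their labelled time, with the CT0 libraries at 0.156 h and 1.42 h and the CT24 libraries at 4.52 h and 20.8 h, 7.74 h apart, and left-out libraries missed their time by up to 9.34 h.

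None of the transcripts with the lowest p passed the main test. First among them was Cyp26a1, which oxidises and so clears retinoic acid. It had 20.3 and 45.1 CPM at CT0 and 7.99 and 4.15 CPM at CT24. Both CT0 mice exceeded every other library, the next being the CT16 mice with 15.4 and 14.2 CPM. The difference was -2.43 log2 units (interval -3.19 to -1.68; edgeR adjusted p = 0.0998). Over 15 alternatives the adjusted p ran from 1.13e-23 to 1.00 and the difference from -2.98 to -1.75, and it passed in 6, among them the fit without CT0 replicate 1. The gene spans chr19:37697738-37701536 with a predicted transcript included, and the counted transcript starts at 37697808. Its promoter holds a direct repeat, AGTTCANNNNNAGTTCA, of the kind bound by retinoic acid receptors, starting 32 bases before the latter start. This motif was looked for after the value of Cyp26a1 had been seen, and 8 of 27025 genes (0.0296%) hold it. Only these exact half-site letters were searched, so that the share does not count repeats with other half-site letters. The repeat reads on the minus strand within this stretch at chr19:37697769-37697798, with the repeat and its spacer in capitals.
Cyp26a1: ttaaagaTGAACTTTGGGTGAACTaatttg
Other retinoid genes were looked at after this value was known. Cyp26b1, a related retinoic acid hydroxylase, had a difference of -1.97 (interval -3.26 to -0.68) and did not overlap between the days, and Lrat, which esterifies retinol and marks stellate cells, had -0.83 (interval -1.42 to -0.24). Neither passed (adjusted p = 0.957 for both, in edgeR). Their size depended on the CT24 mouse: without CT24 replicate 1 the differences of Cyp26b1 and Lrat were -3.40 and -1.20. Without CT24 replicate 2 they were -1.26 and -0.53.

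Rplp1, an acidic stalk protein of the large ribosomal subunit, was next. It had 27.6 and 26.7 CPM at CT0 and 13.4 and 14.4 CPM at CT24, a difference of -0.96 (interval -1.36 to -0.57; edgeR adjusted p = 0.819). The mice of a day nearly coincided. Over 15 alternatives the adjusted p ran from 0.0032 to 1.00, and it passed in 2, DESeq2 (adjusted p = 0.0102) and the fit without a filter. The nucleosome-binding protein Hmgn1 had 6.88 and 6.66 CPM at CT0 and 3.14 and 3.89 CPM at CT24, and the latter were the lowest values of all 14 libraries. Slc2a1, the glucose transporter GLUT1, had 7.93 and 9.41 CPM at CT0 and 5.75 and 3.61 CPM at CT24. Tmem64 had 6.21 and 6.42 CPM at CT0 and 3.46 and 2.08 CPM at CT24. All had an edgeR adjusted p of 0.957.

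On the side of higher levels, Alas1, the rate-limiting enzyme of heme synthesis in liver, had 70.1 and 133 CPM at CT0 and 213 and 275 CPM at CT24. Its groups did not overlap, but the mice of CT0 were themselves nearly 2-fold apart. The difference was 1.26 (interval 0.68 to 1.85; edgeR adjusted p = 0.957) within a range of 3.21, since Alas1 reached 742 and 728 CPM at CT12. Aacs, a cytosolic ligase that turns acetoacetate into a lipid precursor, had 27.4 and 15.7 CPM at CT0 and 50.9 and 43.0 CPM at CT24, a difference of 1.12 (interval 0.58 to 1.67). Its CT20 libraries were higher still, at 77.8 and 73.2 CPM. The histone demethylase Phf8 had 3.10 and 1.93 CPM at CT0 and 5.24 and 6.12 CPM at CT24. The zinc finger genes Zbtb41 and Hivep1 had differences of 1.28 and 1.13. Alas1, Aacs, Phf8 and Tmem64 passed in the fit without a filter, and Aacs also with the replicate block.

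In none of the lists of liver metabolism did a member pass the test. All 15 tested genes of fatty acid synthesis but 1 had intervals within 2-fold, as had 15 of 18 genes of cholesterol synthesis and uptake. None of these genes had under 100 counts and 14 and 9 of them had at least 1000, where 96.5% of all transcripts lay within 2-fold. Their medians were -0.09 and 0.04, and with 1 library left out they ran from -0.18 to 0.11 and from -0.03 to 0.11, so that neither had a settled direction. The median of fatty acid synthesis was above 0 without CT0 replicate 1 and without CT0 replicate 2, and that of cholesterol synthesis below 0 without CT0 replicate 2. The lipogenic desaturase Scd1 had 1895 and 2025 CPM at CT0 and 1717 and 1624 CPM at CT24. Of 17 tested genes of the fasting response, 0 had an unadjusted p under 0.05, beside 5.11% of all genes, and 11 lay within 2-fold, 10 of them among the 12 with at least 1000 counts.

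In bile acid synthesis and transport, 5 of 12 genes lay higher in both CT24 mice and 1 lower, beside backgrounds of 18.7% and 18.9% of genes. The median was 0.16, with 8 genes above 0 and 4 below. Without CT0 replicate 1 it was 0.04, with 6 above and 6 below, and without CT24 replicate 2 it was 0.07. With total scaling it was -0.14, beside -0.30 for all transcripts. The hepatocyte markers lay on the same side, with 8 of 13 higher in both CT24 mice, 0 lower and a median of 0.17 (0.08 without CT0 replicate 2, 0.11 without CT24 replicate 1), and their part in the lists of hepatocyte genes was not tested. Cyp7a1, the rate-limiting enzyme of bile acid synthesis, had 21.3 and 20.9 CPM at CT0 and 44.0 and 42.2 CPM at CT24. The mice of a day were nearly equal, and the difference was 1.03 (interval 0.48 to 1.59; edgeR adjusted p = 0.957). The uptake transporter Slco1b2 had 268 and 317 CPM at CT0 and 379 and 494 CPM at CT24. Cyp27a1 and Cyp8b1, further enzymes of the pathway, overlapped, with differences of -0.06 and -0.00.

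Of 21 genes of drug metabolism, 7 lay higher in both CT24 mice and 1 lower, beside the same backgrounds of 18.7% and 18.9%, and the median difference was 0.35. The groups did not overlap for 38.1% of the list and for 37.6% of all genes. Cyp3a11 had 794 and 759 CPM at CT0 and 907 and 1215 CPM at CT24, and Cyp1a2 had 393 and 349 CPM at CT0 and 500 and 469 CPM at CT24. Without CT24 replicate 2 the median was 0.08, and without CT24 replicate 1 it was 0.57. The Mup family, secreted pheromone carriers, showed the same side. Both CT24 mice exceeded both CT0 mice for 11 of 16 genes and for none were both lower, with a median of 0.53 that was 0.30 without CT0 replicate 1. These shares stood beside 18.7% and 18.9% of all genes. Mup genes are near-identical and neighbours in the genome, so these are not 11 separate measurements. Mup3 had 1622 and 2244 CPM at CT0 and 2569 and 3035 CPM at CT24. When libraries were scaled to the total count, the median of all transcripts was -0.30 in place of 0.01, and those of drug metabolism and the Mup family were 0.04 and 0.24, still above it.

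Cytosolic ribosomal proteins leaned the other way. Of 77 tested genes (81 in the files), 33 lay lower in both CT24 mice and 2 higher, with backgrounds of 18.9% and 18.7%. At an unadjusted p under 0.05 there were 13 lower and 0 higher, beside 2.56% and 2.55% of all genes. The median difference was -0.21, and the median over all genes -0.00. For 61 of the 77 the interval was within 2-fold. Beside Rplp1, those lower in both CT24 mice included Rps23, with 5.55 and 6.38 CPM at CT0 and 2.1 and 3.36 CPM at CT24, and Rpl38, with 19.8 and 20.1 CPM at CT0 and 12.9 and 12.9 CPM at CT24. Rpl4, with most reads, had 87.1 and 82.6 CPM at CT0 and 73.5 and 81.5 CPM at CT24. The mRNAs of ribosomal proteins carry a 5′ tract through which nutrients control their translation, and 69 of the 77 were rhythmic over CT4 to CT20, beside 7.24% of all genes. Summed, they took 1822 and 1732 CPM at CT0 and 1391 and 1641 CPM at CT24, with 859 to 976 CPM at CT4 and CT8 and 1746 to 2387 CPM at CT12 and CT16. The CT24 mice thus lay below the CT0 mice and well above the daily trough. Without CT24 replicate 1 the median was -0.07, and without CT24 replicate 2 it was -0.38. With total scaling it was -0.53 beside -0.30 for all transcripts. The study counted reads with a unique place in the genome, which leaves out reads that also match a pseudogene exactly.

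Other parts of the translation and protein machinery were described in the same way, and their difference from the ribosomal proteins was not tested. All 21 translation factors had intervals within 2-fold and a median of 0.04 that ran from -0.02 to 0.06 with 1 library left out. The elongation factor Eef1a1, which carries the same kind of 5′ tract, had 281 and 317 CPM at CT0 and 285 and 343 CPM at CT24, within a range of 2.31. All 36 tested proteasome genes lay within 2-fold as well, with a median of 0.02 (-0.04 to 0.04 with 1 library left out). Of 76 nuclear-encoded genes of the respiratory chain 73 did so. No gene of these 3 lists had under 100 counts, and 17, 29 and 69 of them had at least 1000, a class in which 96.5% of all transcripts lay within 2-fold. In this list 26 lay lower in both CT24 mice and 7 higher, beside 18.9% and 18.7% of all genes, the same side as the ribosomal proteins. The median was -0.10, and -0.04 without CT24 replicate 1 and -0.07 without CT0 replicate 2.

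**Figure D5:**
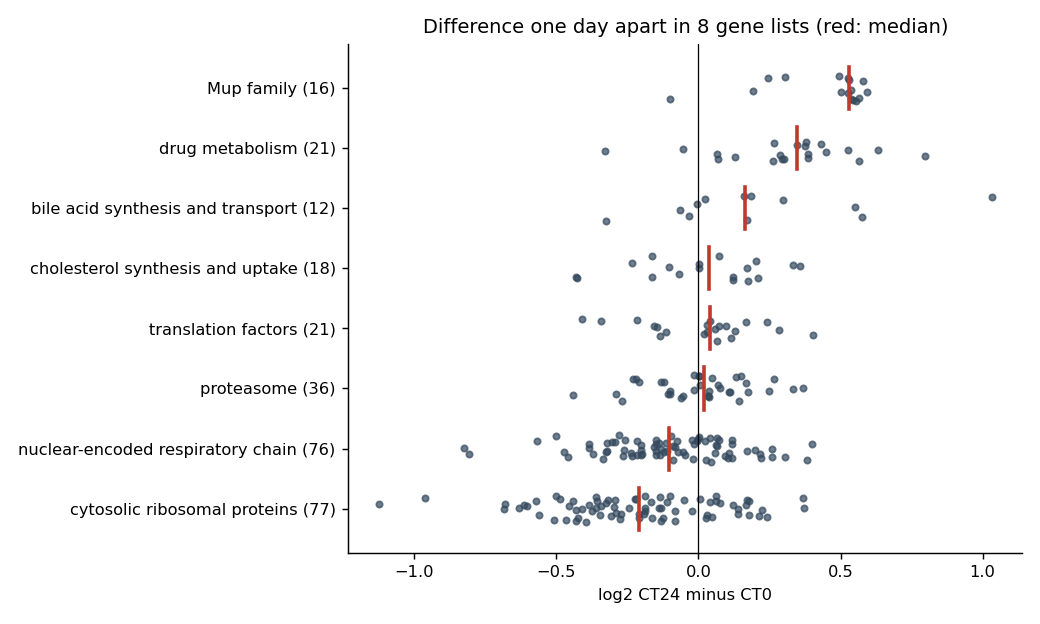
Each point is the log2 difference between CT24 and CT0 of 1 gene in 8 lists, with the number of tested genes in parentheses and a red bar at the median. Ribosomal proteins have a median of -0.21, drug metabolism 0.35 and the Mup family 0.53, and the proteasome and translation factors lie around 0.

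No gene of temperature, stress or hormone responses passed the test. Of 18 heat shock genes, which follow the daily rhythm of body temperature, 5 lay higher in both CT24 mice and 1 lower, so that 33.3% did not overlap beside 37.6% of all genes. None had an unadjusted p under 0.05 (0 of 18, beside 5.11%), and 13 were rhythmic, beside 7.24% of all genes. Hsp90ab1 had 327 and 310 CPM at CT0 and 396 and 325 CPM at CT24. The cold-inducible Cirbp had 1.75 and 2.62 CPM at CT0 and 1.22 and 0.739 CPM at CT24, a difference of -1.16 (interval -2.09 to -0.24), while the related Rbm3 overlapped. Of 11 tested immediate early genes, 10 had a difference below 0, and 2 lay lower in both CT24 mice and 0 higher, so that 18.2% did not overlap beside 37.6% of all genes. Zfp36, which destabilises cytokine mRNAs, had 8.10 and 10.9 CPM at CT0 and 4.50 and 7.04 CPM at CT24. The median of this list was -0.32. It was -0.03 without CT0 replicate 2, -0.06 without CT24 replicate 1, -0.64 without CT0 replicate 1 and -0.69 without CT24 replicate 2. Among 12 genes of the glucocorticoid response 7 lay within 2-fold, with none under 100 counts, and the median was -0.00, or -0.07 to 0.22 with 1 library left out, with Tat at 685 and 582 CPM at CT0 and 612 and 518 CPM at CT24. Of 20 genes of the response to ER stress and amino acids 15 lay within 2-fold, and Hspa5 had 484 and 313 CPM at CT0 and 449 and 409 CPM at CT24. Of 21 tested acute phase genes 8 lay higher in both CT24 mice and 0 lower, beside 18.7% and 18.9% of all genes, and in all 38.1% did not overlap, beside 37.6%. The median was 0.20, it ran from 0.10 to 0.14 with 1 library left out, lowest without CT24 replicate 1, and it was -0.10 with total scaling, beside -0.30 for all transcripts. Of 19 clock output genes 6 lay higher and 2 lower, and the 42.1% that did not overlap stood beside 37.6% of all genes. Among them was Upp2, a uridine phosphorylase, with 53.3 and 59.3 CPM at CT0 and 80.9 and 82.2 CPM at CT24.

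Markers of other cells were compared in the same 4 libraries. All 10 genes of liver endothelium lay within 2-fold, as did 9 of 11 Kupffer cell genes, and none of these had under 100 counts. Stellate cell markers were lower in both CT24 mice for 5 of 9 genes and higher for 1, beside 18.9% and 18.7% of all genes, with a median of -0.43. Their sum was 209 and 186 CPM at CT0 and 176 and 172 CPM at CT24. In a whole liver, fewer cells of a type and less RNA in each cannot be told apart. The 9 genes listed as lymphocyte markers summed to 3.64 and 2.88 CPM at CT0 and to 4.32 and 5.12 CPM at CT24. Most of that sum was Ptprc, with 3.02 and 2.15 CPM at CT0 and 3.61 and 4.70 CPM at CT24. The sum thus mainly follows 1 gene and does not measure lymphocytes as such. Of the 9 genes 2 were tested, and these were higher in both CT24 mice, beside 18.7% of all genes (median 0.68). Neutrophil markers summed to 0.129 to 0.510 CPM, erythroid markers ran from 64.2 to 96.8 CPM and cholangiocyte markers from 15.5 to 24.4 CPM. Pancreatic islet markers had at most 0.0204 CPM.

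Pancreatic acinar markers, digestive enzymes that hepatocytes do not make, separated 1 CT24 mouse from the other 3. Their 20 genes summed to 7.37 and 10.5 CPM at CT0 and to 4.48 and 96.7 CPM at CT24, while CT20 replicate 2 reached 5063 CPM. Of the 19 tested, 19 had a difference above 0, with a median of 3.92, and 0 passed. Without CT24 replicate 2 the median was -3.08, and without CT0 replicate 2 it was 7.14. Cela2a, a pancreatic elastase, had 0.0843 and 1.22 CPM at CT0, 0.306 and 17.6 CPM at CT24, and 0.621 and 810 CPM at CT20. The 5 rhythmic transcripts with the widest swing, among them Reg1, Try5, Pnliprp2 and Pnliprp1, were of this kind, and their highest value lay in CT20 replicate 2. Their part in other transcripts was not tested.

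The distribution of ribosomes along the mRNA was compared in 7640 transcripts through the counts in the 5′UTR over those in the CDS, as a log2 ratio. In limma 0 passed (0%), with 72 higher (0.942%) and 351 lower (4.59%) at CT24 at an unadjusted p under 0.05. The median ratio of a library was -3.17 and -3.14 at CT0 and -3.51 and -3.45 at CT24, and both CT24 libraries lay below both CT0 libraries. The other 10 libraries spanned -3.96 to -3.08. Without CT24 replicate 1 there were 151 calls, 145 of them lower, and without CT0 replicate 1 there were 6. The lowest p belonged to Ddx58, the sensor RIG-I, with 44 and 52 5′UTR counts beside 532 and 552 CDS counts at CT0 and 3 and 9 beside 457 and 545 at CT24. Its ratio did not pass (limma adjusted p = 0.815). Sbno2 had the opposite direction, with 5 and 0 5′UTR counts at CT0 and 23 and 28 at CT24.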

How the data were processed

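The authors clipped footprint reads, removed ribosomal RNA reads with Bowtie2 2.1.0.0, aligned to mm10, kept exact matches (SAMtools 0.1.19.0), used reads with a unique genomic place and assigned reads to the ribosomal A site. The deposited values are raw read counts for 28167 RefSeq transcripts, given apart for the CDS and both UTRs, 27836 with a symbol. How reads shared between overlapping transcripts were counted is not given in the sources used here. The 3 regions were summed here. Levels are TMM-scaled CPM. edgeR 4.0.16 (glmQLFit, glmQLFTest; R 4.3.3) was fitted to all 14 libraries with time point as a factor on transcripts that averaged 10 or more counts, and Benjamini-Hochberg adjusted p-values were called under 0.05. Intervals (95%) use the fit's standard errors. Calls of rhythm used a cosine on CT4 to CT20, and the range there is of log2 CPM with a prior count of 2. The 5′UTR to CDS ratio was tested with limma 3.58.1 after adding 0.5 counts. DESeq2 1.42.0, other scalings, filters, regions, covariates and left-out libraries were alternatives. Each test was tested on simulated data.

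Genes are represented by their transcript with most reads. Named were all clock genes, the 5 transcripts of lowest p in each direction with a mean of at least 100 counts (since fewer than 5 passed), the member of each list with most reads, the 5 rhythmic transcripts of widest swing and the 5 narrowest intervals. A few genes that these rules pick are not reported here. Further list members were named after their values were seen. The comparison and gene lists were chosen with earlier results of these data known. Replicate numbers did not pair the mice: the correlation between CT0 and CT24 of the difference between replicates was 0.03. Sequences and coordinates are RefSeq's (GRCm38.p6).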

Additional observations from a re-analysis of the deposited data

How the results depend on the processing

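The call of no transcript between CT24 and CT0 held with DESeq2 size factors, upper quartile scaling, a mean of at least 100 counts, CDS reads only, 1 transcript per gene, the index label as a covariate and the 4 libraries alone. It became 1 with total count scaling and 2 with the DESeq2 Wald test. The call of none held without CT16 replicate 2. Leaving out 1 library of CT0 or CT24 leaves 1 mouse on that day, so that the spread comes from other groups. Without CT0 replicate 1 the differences of Cyp26a1 and Plk3 were -2.91 and -2.43. Without CT0 replicate 2 they were -1.75 and -0.07, so that the difference of Plk3 rested on that library. Without a filter there were 54 calls, all with a mean of at least 10 counts and many of them pancreatic. By its construction that fit gave every transcript the trend variance. Leaving out CT12 replicate 1 and CT20 replicate 1, chosen after seeing the data, gave 1 call. For rhythmic transcripts the same settings gave 1 (total), 40 (no filter), 1 (CT12 and CT20 replicates left out) and 0 to 2 calls (1 library left out). Drift gave 81 calls without a filter. Intervals within 2-fold numbered 6173 with total scaling, and 7445 to 10021 with 1 library left out. At a limit of 1.5-fold there were 3692. The ratio of 5′UTR to CDS gave 0 to 151 calls with 1 library left out. The clock placement, added after seeing the data, gave -0.136 h in place of -0.739 h with 851 rhythmic genes, which misplaced left-out libraries by up to 9.34 h and placed 3 of the 4 libraries after their labelled time in place of before it. Except where stated above, the cause was not tested. Of 68 named transcripts, 40 changed sign under at least 1 alternative without passing, and 0 reversed past the threshold. Total scaling was among these alternatives and moved the median of all transcripts from 0.01 to -0.30. Small differences above 0 could change sign by that shift alone, so the 40 do not measure how settled single directions were.

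The replicate block gave 6 calls, 5 higher (Try4, 2210010C04Rik, Clps, Zg16 and Aacs) and 1 lower (Cyp26a1), all 6 rhythmic. It moved no other count by over 1.5 times. Of the 5 higher, all but Aacs are pancreatic genes. Pancreatic acinar markers summed to 5063 CPM in CT20 replicate 2 and 96.7 CPM in CT24 replicate 2. All 19 tested acinar markers were called rhythmic. Over 21 pairs of time points the correlation of replicate differences was -0.06 to 0.19, so the block pairs samples that share only a number. Depth limits transcripts under 100 counts, and intervals cover 2 mice a day.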

Other observations

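Some transcripts differed between the mice of CT0 themselves, and were chosen after their values were seen. Cish, a feedback inhibitor of growth hormone signalling, had 0.573 and 16.3 CPM at CT0 and 1.37 and 1.76 CPM at CT24. Its difference of -2.43 (interval -4.26 to -0.60) was 1.45 without CT0 replicate 2. Phlda1 had 12.8 and 93.6 CPM at CT0 and 14.6 and 17.2 CPM at CT24, and its difference of -1.74 (interval -3.09 to -0.39) was 0.31 without CT0 replicate 2. Both had overlapping groups and an edgeR adjusted p of 0.957, and both differences rested on that 1 library. The peroxisomal coenzyme A hydrolase Nudt7 did not overlap between the days and had a difference of 0.57 (interval 0.24 to 0.91; edgeR adjusted p = 0.957).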
